A study of Homo sapiens with 8 samples.

Results

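Interferon-stimulated genes are the genes that cells switch on when interferon is sensed, and 38 of them, named by symbol, were followed in MDA-MB-231, a line from a human breast tumour of the triple-negative kind. All 38 were found by Ensembl ID in the table of read counts, which held 36715 genes. Cells of this 1 line received EMD37 at 0.5 µM or its solvent DMSO (vehicle), and RNA was sequenced after 12 h or 24 h. The 4 groups were EMD37 at 12 h, vehicle at 12 h, EMD37 at 24 h and vehicle at 24 h, each with 2 libraries marked A and B. The series title ties EMD37 to stress of the endoplasmic reticulum, and no sample was given interferon according to the labels. The labels did not say whether A and B were separate cultures, so every p-value measures the spread between these libraries, which may be technical.

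Type I interferons bind the receptor chains IFNAR1 and IFNAR2, and the kinases JAK1 and TYK2 then phosphorylate STAT factors, STAT2 among them. Phosphorylated STAT2 joins IRF9 in a complex that binds the interferon-stimulated response element (ISRE) in the promoters of target genes. Many of these genes encode proteins that bind viral RNA, block viral replication or feed back on the signal. Part of the set keeps a low level without added interferon in many cultured cancer cells, and IRF1 and IRF3 can also drive some members directly.

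Counted reads per library ran from 8.99 M to 11.44 M (M, mega), and enough of them fell on 14850 genes for a test. Values below are CPM (counts per M) after scaling with trimmed mean of M-values (TMM) factors, and 3 reads in a library, taken as the floor, equal 0.257 to 0.323 CPM. That floor covers counting error only. Markers of the line (VIM, CD44, AXL, ZEB1 and MSN) summed to 4715 to 5590 CPM over the 8 libraries, at 4715 and 4964 CPM with EMD37 at 24 h against 5293 and 5590 CPM in vehicle at 24 h. The 6 genes usually low in it (ESR1, PGR, ERBB2, KRT19, EPCAM and CDH1) summed to 13.0 to 19.2 CPM. The 8 leukocyte markers summed to 0.965 to 2.43 CPM with EMD37 at 24 h and to 2.04 to 2.69 CPM in vehicle at 24 h, and LYZ had no read. The part of other cells in the results was not tested. The 37 mitochondrial genes had 0 reads, and genes usually abundant in culture had few. ACTB, for example, had a mean of 8.14 CPM of the library totals, without TMM factors. A low value of a member here is thus a low count and not shown to be low expression. In bulk RNA, fewer cells expressing a gene and less of its RNA per cell cannot be told apart.

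Of the 38 genes, 34 passed the filter on low counts and 23 averaged at least 10 CPM. The 4 untested genes included ISG15, which encodes a ubiquitin-like protein, with 3 reads over all 8 libraries. One of these reads was in EMD37 A at 24 h and 2 were in vehicle A at 12 h. IRF7, an amplifier of interferon production, had 15 reads in all, the mitochondrial nucleotide kinase CMPK2 had 21 and USP18, which removes ISG15 from proteins and damps receptor signalling, had 26. Per kilobase of annotated exon, IFIT3 stood highest with a mean of 99.7 CPM per kb over the 8 libraries. IFIT2 (55.7 CPM per kb), IFIT5 (50.5), SAMD9 (37.2) and IFIT1 (37.0) came next. Of the tested genes, MX2 had the lowest level with 0.153 CPM per kb. The levels per kb were thus spread widely, and the highest were those of IFIT genes and SAMD9.

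**Figure D1:**
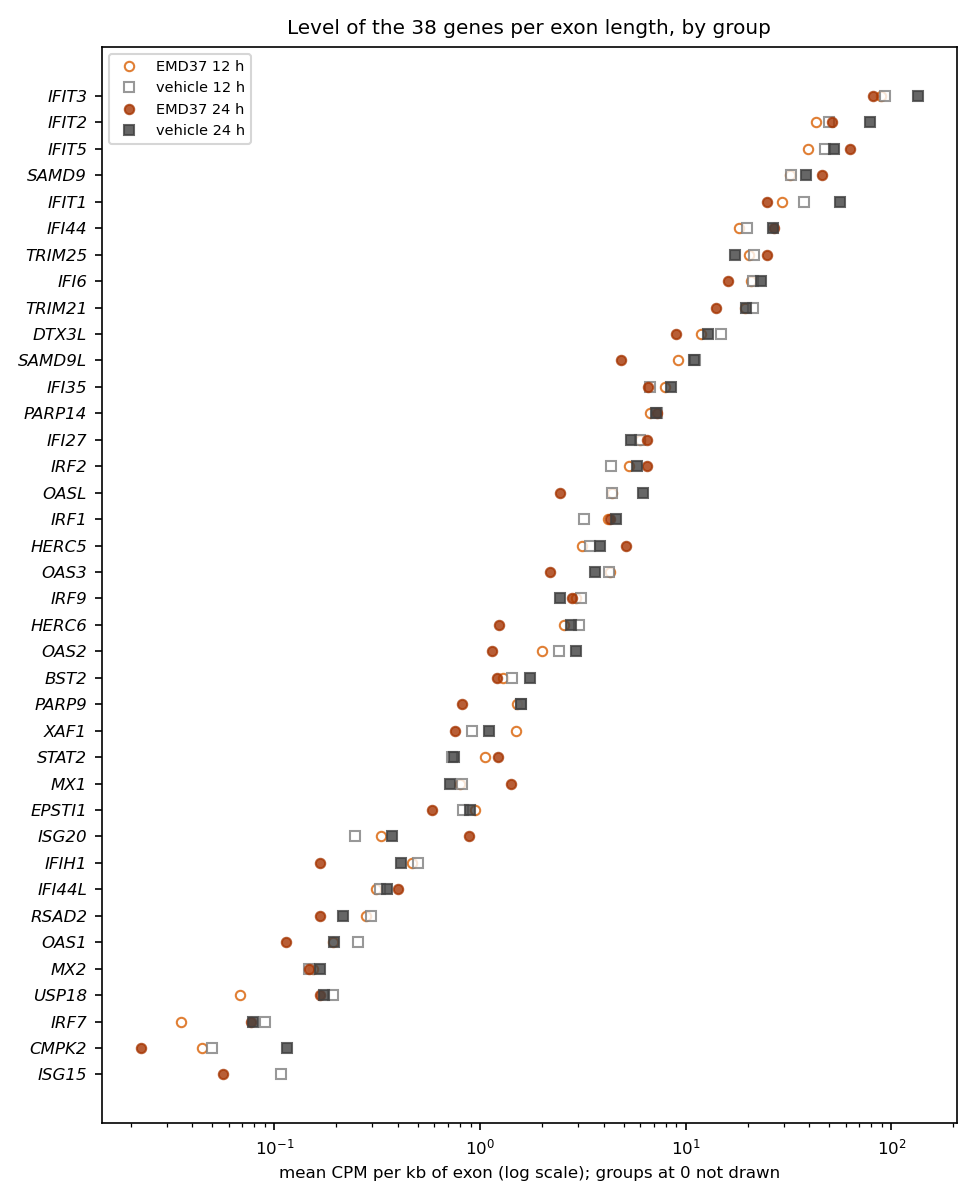
Mean CPM per kb of exon (log scale) of the 38 genes in each of the 4 groups, ordered by the mean over the 8 libraries. IFIT3 is at the top with 99.7 CPM per kb, ISG15 at the bottom with 3 reads in all, and a group with no read is not drawn.

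At 24 h the set split into genes that fell with EMD37 and a smaller number that rose. A gene was called where its adjusted p was below 0.05 in edgeR (quasi-likelihood test, Benjamini-Hochberg over all 14850 genes). Of the 34 tested members, 13 fell and 7 rose, and 14 were not called. The falls were 38.2% of the tested members, beside 21.1% of all tested genes called lower. The rises were 20.6% of them, beside 19.6% of all tested genes called higher, so the share of rises was near the background. The median log2 difference (EMD37 minus vehicle) was -0.43 over the members and -0.03 over all genes. A 2-fold difference (1 on the log2 scale) was passed by 7 called members. Of these, 6 fell (IFIT1, OAS2, OASL, IFIH1, HERC6 and SAMD9L) and 1 rose. The lowest log2 difference was that of the OAS-like gene OASL at -1.35 and the highest that of the exonuclease ISG20 at 1.29. The calls of IFIH1 and ISG20 did not hold in every alternative fit. The share of all tested genes that passed a 2-fold difference was not worked out. Leaving out EMD37 B at 24 h brought the rises to 2 members and leaving out vehicle B at 24 h to 4, while the falls stayed between 11 and 14 without any 1 library.

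At 12 h few members were called. None was called higher, where 5.27% of all tested genes were, and 3 were called lower (8.82%), where 3.43% of all tested genes were. At an unadjusted p below 0.05 there were 3 higher and 5 lower members, and the share of all genes at that cut was not worked out. DESeq2 called 0 members higher and 2 lower, beside 612 higher and 305 lower of all genes. The log2 differences of the members ranged from -0.39 to 0.70 with a median of -0.08, beside -0.01 over all genes. The 3 genes called lower were IFIT1, IFIT5 and DTX3L. Each of these calls ended when a 12 h library was left out, and their count was then 0 without vehicle A, EMD37 A or EMD37 B and 1 without vehicle B. Leaving out vehicle A or vehicle B at 24 h, which enter the common fit, raised the calls of higher genes at 12 h. That held over all genes as well as over the members, so it was not particular to the members.

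**Figure D2:**
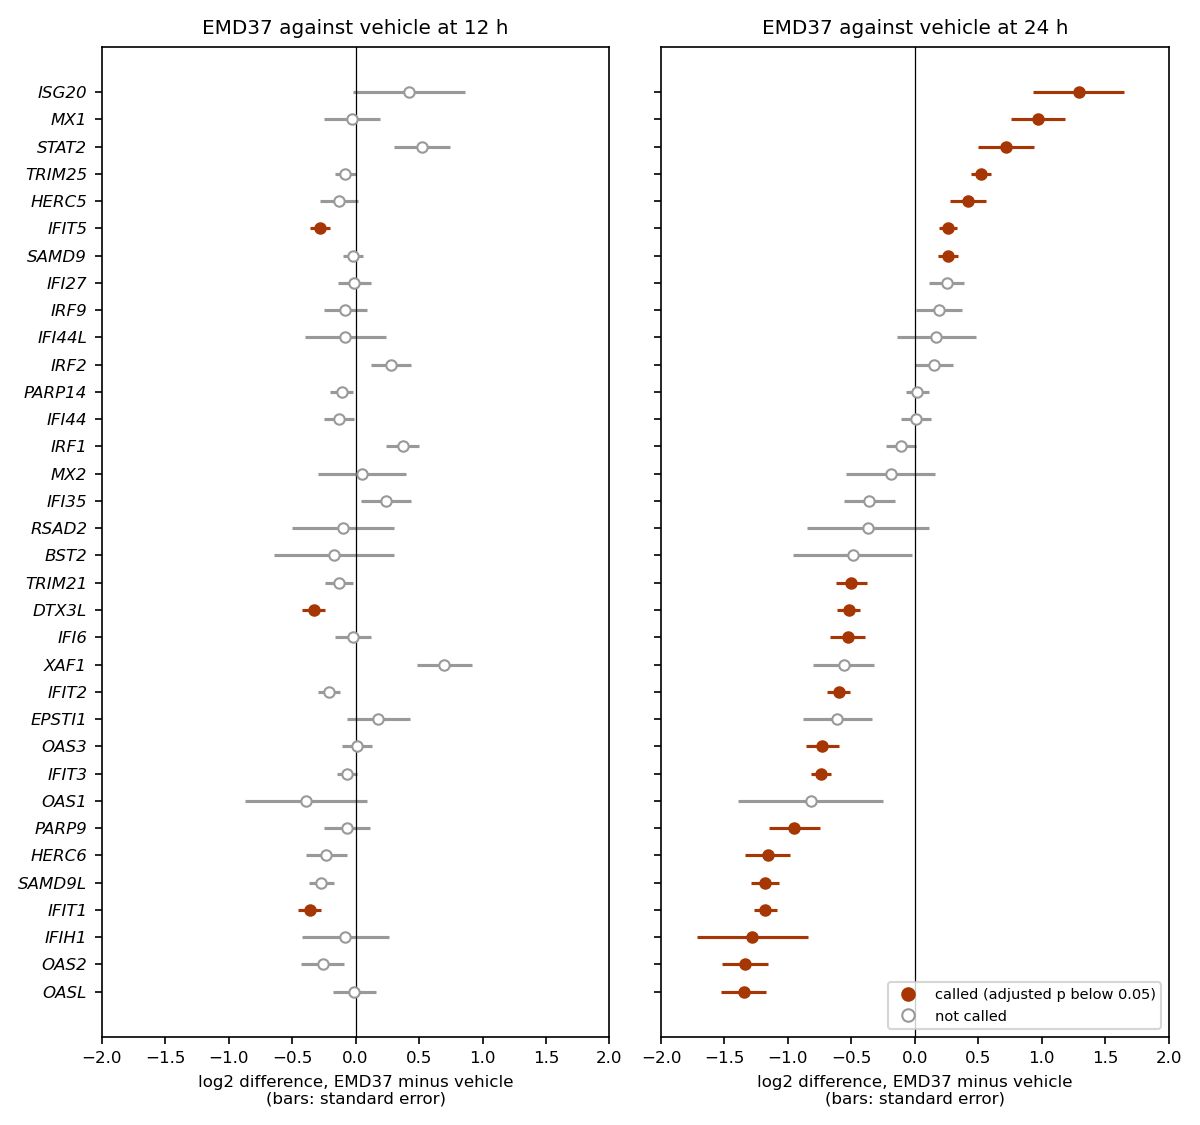
Log2 difference (EMD37 minus vehicle) of the 34 tested genes at 12 h (left) and 24 h (right), with the standard error as bars and filled points for an adjusted p below 0.05. At 24 h 13 genes lie significantly below 0 and 7 above it, while at 12 h 3 filled points lie below 0 and none above.

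The IFIT genes encode proteins with tetratricopeptide repeats that bind RNA, and IFIT1 is known to bind the 5′ end of viral RNA that lacks host cap methylation. They lie side by side on chromosome 10. IFIT1 had 107 and 122 CPM with EMD37 at 24 h, against 268 and 252 CPM in vehicle at 24 h. Both EMD37 libraries lay far below both vehicle libraries, and the log2 difference was -1.18 (SE 0.09, edgeR adjusted p = 1.71e-08). IFIT2 had 198 and 225 CPM with EMD37 against 341 and 302 CPM in vehicle, a log2 difference of -0.60 (SE 0.09, edgeR adjusted p = 5.45e-05). IFIT3, which stabilises IFIT1 in a shared complex, had 212 and 217 CPM with EMD37 against 368 and 347 CPM in vehicle, a log2 difference of -0.74 (SE 0.08, edgeR adjusted p = 1.46e-06). The groups did not overlap in any of these 3 genes. Such separation was not counted over all genes. Here and below it describes genes already called and adds nothing to their calls.

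IFIT5, the fourth of the neighbours, went the other way at 24 h. It had 241 and 263 CPM with EMD37 against 215 and 205 CPM in vehicle, a log2 difference of 0.26 (SE 0.07, edgeR adjusted p = 0.0102). The rise was small, both EMD37 libraries lay above both vehicle libraries, and the call ended without EMD37 B (0.19, edgeR adjusted p = 0.117) or vehicle B (0.22, 0.06). At 12 h IFIT5 was lower, with 157 and 158 CPM with EMD37 against 194 and 188 CPM in vehicle (-0.28, SE 0.08, edgeR adjusted p = 0.0291). Leaving out any single 12 h library ended that call, with an edgeR adjusted p of 0.121 to 0.271. IFIT1 at 12 h had 130 and 141 CPM with EMD37 against 182 and 164 CPM in vehicle (-0.36, SE 0.09, edgeR adjusted p = 0.014). It was not called without vehicle A (0.245), EMD37 A (0.195) or EMD37 B (0.0858). IFIT2 (-0.21, edgeR adjusted p = 0.174) and IFIT3 (-0.07, 0.664) were not called at 12 h. Of the exon bases of IFIT2, 10.3% are shared with LIPA and AL353751.1, and the library kit does not mark strand.

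The promoters of IFIT1 and IFIT5 are shown because these neighbours changed in opposite directions. Each window holds 250 bases before and 50 after the start given by RefSeq (GRCh38.p14), written 5′ to 3′ along the gene. Capitals mark the ISRE core, letters GAAANNGAA, found on either strand. The IFIT1 window is chr10:89392373-89392672 on the plus strand and holds 2 cores. The IFIT5 window is chr10:89414318-89414617 on the plus strand and holds 3.
IFIT1: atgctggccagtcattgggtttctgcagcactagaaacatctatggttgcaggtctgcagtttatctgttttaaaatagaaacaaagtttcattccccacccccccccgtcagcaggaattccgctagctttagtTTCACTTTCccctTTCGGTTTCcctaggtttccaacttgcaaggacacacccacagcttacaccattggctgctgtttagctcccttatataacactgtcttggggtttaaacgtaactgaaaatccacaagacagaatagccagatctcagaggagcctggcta
IFIT5: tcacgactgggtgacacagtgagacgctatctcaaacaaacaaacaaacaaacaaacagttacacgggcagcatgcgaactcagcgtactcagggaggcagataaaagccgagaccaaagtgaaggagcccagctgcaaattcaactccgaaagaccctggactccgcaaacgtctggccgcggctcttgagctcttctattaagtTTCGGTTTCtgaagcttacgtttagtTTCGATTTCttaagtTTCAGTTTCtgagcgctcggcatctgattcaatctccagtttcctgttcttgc

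A window was found for 31 of the 38 members, with none for OAS2, IFIT2, IRF7, MX2, USP18, IRF2 and OASL, and every listed window of a gene was searched. The ISRE core was present in 22 of the 31 (71.0%), beside 9.86% of 27305 genes. It was in 8 of 10 genes with a window that fell at 24 h, in 5 of 7 that rose and in 7 of 12 that were not called. The core thus stood in most of the genes that fell and in most of those that rose. The gamma-activated site, letters TTCNNNGAA, was in 9 of the 31 (29%), beside 9.38% of all genes. Of these 9, none was among the genes that fell, 1 was among those that rose and 8 were among those not called. The NF-kB consensus was in 5 of the 31 (16.1%), beside 7.09% of all genes. All were searched on both strands, ISRE cores overlapped each other in 7 of the 41 member windows, and different motifs overlapped in 5. A match describes letters and is not shown to be a bound site.

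The OAS enzymes make short chains of 2′-5′ linked adenosine that activate the ribonuclease RNase L. OAS2 had 6.44 and 8.01 CPM with EMD37 at 24 h, against 19 and 17.7 CPM in vehicle at 24 h (log2 difference -1.34, SE 0.18, edgeR adjusted p = 1.62e-05). OAS3 had 18.5 and 17.5 CPM with EMD37 against 31.6 and 27.9 CPM in vehicle (-0.73, SE 0.13, edgeR adjusted p = 0.000199). OASL, which lacks the enzyme activity and aids RNA sensing by RIG-I, had 9.29 and 7.92 CPM with EMD37 against 22.9 and 20.8 CPM in vehicle (-1.35, SE 0.18, edgeR adjusted p = 1.63e-05). In each of the 3 genes the EMD37 libraries lay below both vehicle libraries. OAS1 was near the floor, with 0.739 and 0.386 CPM with EMD37 against 1.30 and 0.646 CPM in vehicle, and was not called (-0.82, SE 0.57, edgeR adjusted p = 0.273). At 12 h none of the 4 was called, and OAS2 had 12.2 and 13.0 CPM with EMD37 against 16.7 and 13.5 CPM in vehicle. OAS3 and OASL were at 0.01 and -0.01 on the log2 scale at 12 h.

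MX1, a dynamin-like GTPase that blocks influenza and other viruses, rose at 24 h. It had 12.5 and 12.1 CPM with EMD37 against 7.22 and 5.17 CPM in vehicle (log2 difference 0.97, SE 0.21, edgeR adjusted p = 0.00145). At 12 h it had 7.37 and 6.37 CPM with EMD37 against 8.03 and 6.07 CPM in vehicle, with overlapping groups and no call (-0.03, SE 0.22, edgeR adjusted p = 0.965). Its neighbour MX2, known for restricting HIV, had 1.90 and 1.93 CPM with EMD37 at 24 h against 2.50 and 1.83 CPM in vehicle (-0.19, SE 0.35, edgeR adjusted p = 0.708). The 2 groups overlapped in MX2.

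**Figure D3:**
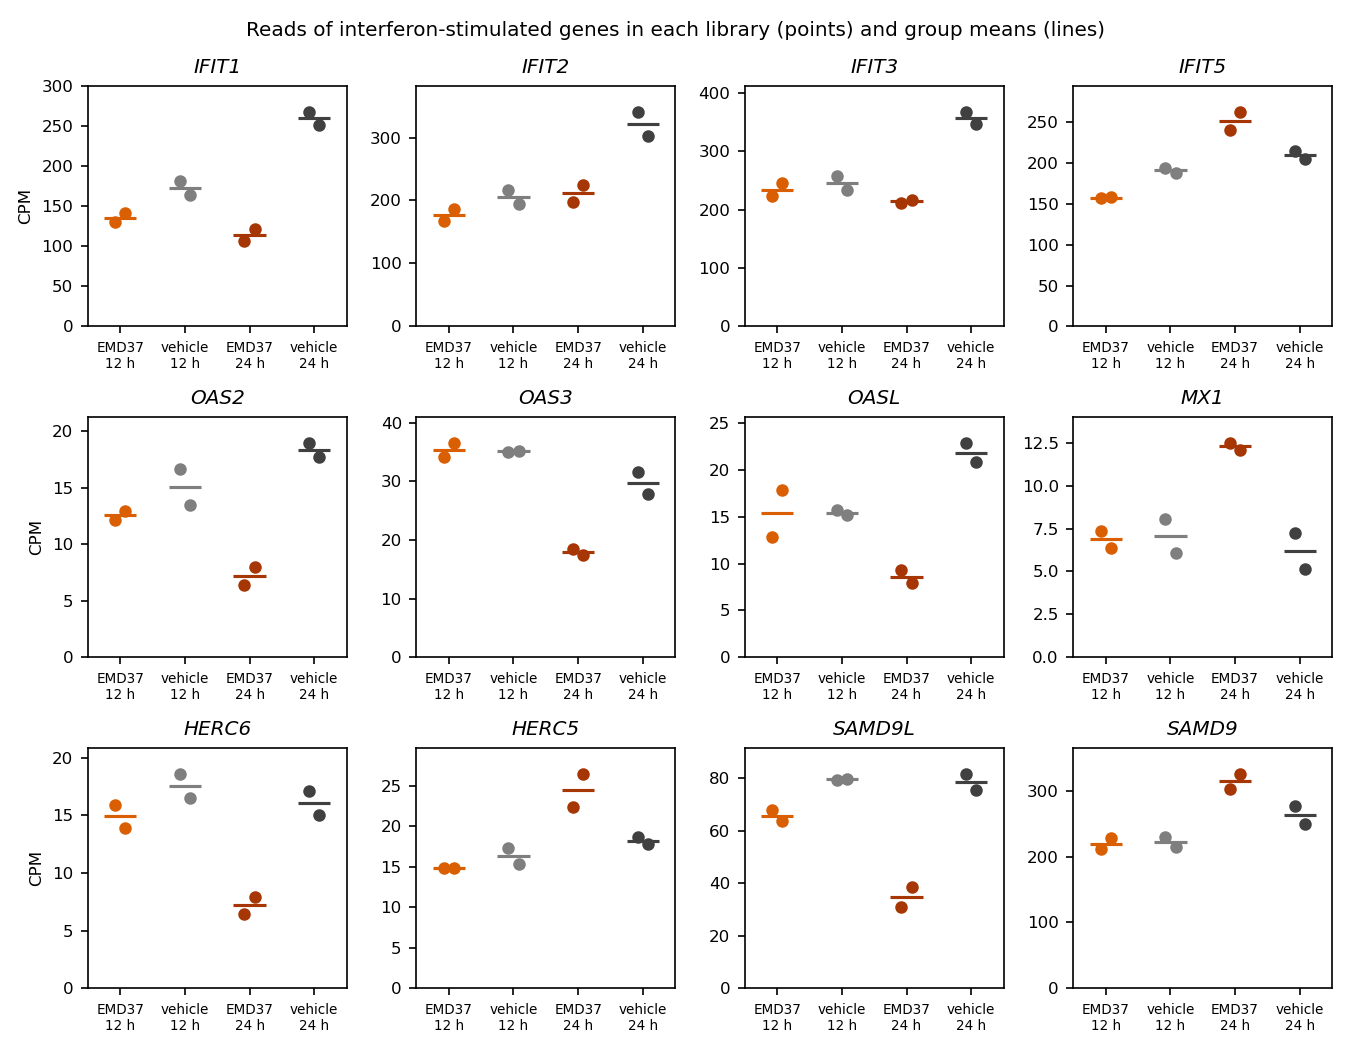
CPM of 12 of the genes in each library (points), with group means (lines), for EMD37 and vehicle at 12 h and at 24 h. IFIT1 at 24 h lies at 107 and 122 CPM with EMD37 against 268 and 252 CPM in vehicle, while MX1 lies at 12.5 and 12.1 CPM against 7.22 and 5.17 CPM.

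Among genes of ISG15 conjugation, the neighbours HERC5 and HERC6 moved apart at 24 h. HERC5, the main human ligase for ISG15, had 22.4 and 26.5 CPM with EMD37 against 18.7 and 17.8 CPM in vehicle (log2 difference 0.42, SE 0.14, edgeR adjusted p = 0.0241). HERC6, its close relative and the ISG15 ligase of mice, had 6.44 and 7.92 CPM with EMD37 against 17.1 and 15.0 CPM in vehicle (-1.16, SE 0.18, edgeR adjusted p = 6.7e-05). Both differences were larger than the gap between the libraries of a group. The call of HERC5 ended without EMD37 B (0.29, edgeR adjusted p = 0.239), with DESeq2 (DESeq2 adjusted p = 0.0598) and when only the groups compared were fitted (edgeR adjusted p = 0.0587). At 12 h neither was called (HERC5 -0.13, HERC6 -0.23). TRIM25, a ubiquitin and ISG15 ligase that acts on RIG-I, had 237 and 235 CPM with EMD37 at 24 h against 158 and 171 CPM in vehicle (0.52, SE 0.08, edgeR adjusted p = 0.000118). At 12 h it had 191 and 197 CPM with EMD37 against 189 and 222 CPM in vehicle (-0.08, edgeR adjusted p = 0.616). Other genes share 8.8% of the exon bases of TRIM25. ISG15 itself was not measurable here, as its 3 reads show.

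The promoters of this pair are shown for the same reason as those of IFIT1 and IFIT5, with the ISRE core in capitals. HERC5 is chr4:88456869-88457168 and HERC6 is chr4:88378602-88378901, both on the plus strand of GRCh38.p14. The gene that rose holds 3 cores in its window, and the window of the gene that fell holds none. This pair does not stand for the set, where 8 of 10 falling and 5 of 7 rising genes with a window hold the core.
HERC5: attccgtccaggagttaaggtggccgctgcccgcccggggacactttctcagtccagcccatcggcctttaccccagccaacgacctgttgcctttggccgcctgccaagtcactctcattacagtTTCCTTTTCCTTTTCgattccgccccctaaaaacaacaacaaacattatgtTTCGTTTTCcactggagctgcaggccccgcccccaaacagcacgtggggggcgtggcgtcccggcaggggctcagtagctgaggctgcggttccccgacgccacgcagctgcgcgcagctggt
HERC6: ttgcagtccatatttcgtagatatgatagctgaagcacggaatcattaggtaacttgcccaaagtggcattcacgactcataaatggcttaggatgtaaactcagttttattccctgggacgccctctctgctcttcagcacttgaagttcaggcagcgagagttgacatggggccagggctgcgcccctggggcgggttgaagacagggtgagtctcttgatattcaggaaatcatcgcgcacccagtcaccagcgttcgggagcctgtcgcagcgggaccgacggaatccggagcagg

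Of the transcription factors, STAT2, the partner of IRF9, had 7.5 and 7.53 CPM with EMD37 at 24 h against 5 and 4.09 CPM in vehicle (log2 difference 0.72, SE 0.22, edgeR adjusted p = 0.0161). The groups did not overlap, yet the call ended without vehicle B (0.59, edgeR adjusted p = 0.0776), EMD37 A (0.74, 0.0529) or EMD37 B (0.71, 0.0694), and with DESeq2 (DESeq2 adjusted p = 0.07). At 12 h STAT2 had 6.82 and 6.07 CPM with EMD37 against 3.96 and 4.96 CPM in vehicle (0.52, edgeR adjusted p = 0.173). IRF1, an activator induced by many signals, passed no test at 24 h (-0.11, edgeR adjusted p = 0.532) or at 12 h (0.37, 0.0804). Other genes share 22% of its exon bases. IRF2, which competes with IRF1, was at 0.15 at 24 h (edgeR adjusted p = 0.459), and IRF9 was at 0.19 (0.418). Reads of IRF9 and of AL136295.5 on the same strand may be split, since 48.4% of its exon bases are shared. IFIH1, which encodes the double-stranded RNA sensor MDA5, had 0.634 and 1.06 CPM with EMD37 at 24 h against 1.94 and 2.26 CPM in vehicle (-1.28, SE 0.44, edgeR adjusted p = 0.0283). These are few reads, and the call ended without vehicle B (-1.17, edgeR adjusted p = 0.0752) or EMD37 A (-0.95, 0.187) and with DESeq2 (DESeq2 adjusted p = 0.105).

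PARP9 and DTX3L encode partners of an ADP-ribosylation and ubiquitin ligase complex, and their genes start head to head on chromosome 3. PARP9 had 6.12 and 8.50 CPM with EMD37 at 24 h against 14.6 and 13.7 CPM in vehicle (log2 difference -0.95, SE 0.20, edgeR adjusted p = 0.00122). DTX3L had 49.4 and 55.9 CPM with EMD37 against 76.7 and 74.4 CPM in vehicle (-0.52, SE 0.09, edgeR adjusted p = 0.000268). Both fell together at 24 h, with no overlap between groups. PARP14, a further ADP-ribosyltransferase 105.4 kb away, had 72.9 and 79.8 CPM with EMD37 against 77.1 and 74.0 CPM in vehicle, with overlapping groups and no call (0.02, SE 0.09, edgeR adjusted p = 0.909). At 12 h DTX3L had 70.8 and 68.7 CPM with EMD37 against 83.6 and 91.2 CPM in vehicle (-0.33, SE 0.09, edgeR adjusted p = 0.0308). That call ended without vehicle A (0.0912), vehicle B (0.246), EMD37 A (0.153) or EMD37 B (0.256), and with DESeq2 (DESeq2 adjusted p = 0.0723).

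SAMD9 and SAMD9L encode large proteins that restrict poxviruses and slow cell growth, and the genes are 12.0 kb apart on chromosome 7. SAMD9L had 30.8 and 38.6 CPM with EMD37 at 24 h against 81.7 and 75.5 CPM in vehicle (log2 difference -1.18, SE 0.11, edgeR adjusted p = 2.39e-07). SAMD9 had 303 and 326 CPM with EMD37 against 277 and 249 CPM in vehicle (0.26, SE 0.08, edgeR adjusted p = 0.0172). The fall of SAMD9L was large beside the small rise of SAMD9. The call of SAMD9 ended without EMD37 B (0.20, edgeR adjusted p = 0.141) or vehicle B (0.18, 0.136) and when only the groups compared were fitted (edgeR adjusted p = 0.0566). At 12 h SAMD9L had 68.0 and 63.6 CPM with EMD37 against 79.5 and 79.6 CPM in vehicle and was not called (-0.27, edgeR adjusted p = 0.113). Their promoter windows, shown because the pair differs, are chr7:93148336-93148635 for SAMD9L and chr7:93117930-93118229 for SAMD9, both on the minus strand of GRCh38.p14. SAMD9 holds 1 ISRE core, in capitals, and SAMD9L holds none, unlike 8 of the 10 falling genes with a window.
SAMD9L: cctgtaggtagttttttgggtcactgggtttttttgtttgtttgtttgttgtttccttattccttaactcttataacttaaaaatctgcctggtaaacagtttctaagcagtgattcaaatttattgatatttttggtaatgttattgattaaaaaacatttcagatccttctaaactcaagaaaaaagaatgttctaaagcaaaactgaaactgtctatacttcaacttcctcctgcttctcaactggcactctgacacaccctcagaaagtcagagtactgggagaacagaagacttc
SAMD9: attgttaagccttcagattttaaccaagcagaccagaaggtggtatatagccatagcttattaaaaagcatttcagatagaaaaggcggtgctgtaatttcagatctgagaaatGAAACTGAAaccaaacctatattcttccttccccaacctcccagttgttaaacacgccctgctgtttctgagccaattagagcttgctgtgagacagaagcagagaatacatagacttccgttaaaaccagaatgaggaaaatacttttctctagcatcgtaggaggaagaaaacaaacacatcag

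**Figure D4:**
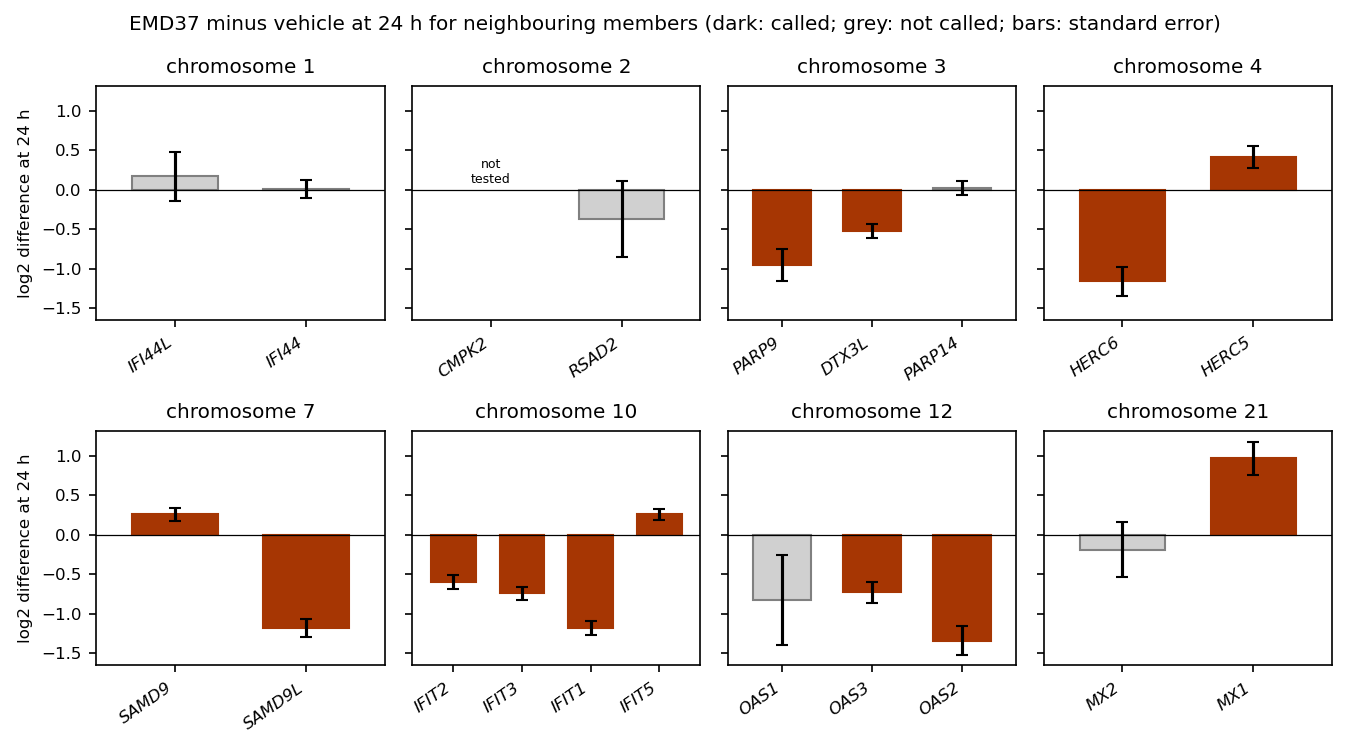
Log2 difference (EMD37 minus vehicle) at 24 h, with the standard error, for the members that lie within 200 kb of another member, in chromosome order. IFIT5 at 0.26 stands against IFIT1 at -1.18, SAMD9 at 0.26 against SAMD9L at -1.18, and HERC5 at 0.42 against HERC6 at -1.16. The rises of IFIT5, SAMD9 and HERC5 were not called in every alternative fit.

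Such neighbour groups, members within 200 kb of each other, numbered 8 and held 20 of the 38 genes. Calls in both directions at 24 h stood within 3 of these groups, those of IFIT, HERC and SAMD9. The share of such mixed neighbours over all genes was not worked out, where 19.6% of all tested genes were called higher and 21.1% lower. The rises in these groups, of IFIT5, HERC5 and SAMD9, were not called in every alternative fit. Their log2 differences were 0.19, 0.29 and 0.20 without EMD37 B at 24 h. The difference between neighbours was not itself tested.

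Of the remaining effectors, ISG20, an exonuclease that degrades RNA, had 5.81 and 7.24 CPM with EMD37 at 24 h against 1.30 and 4.20 CPM in vehicle (log2 difference 1.29, SE 0.36, edgeR adjusted p = 0.00876). The 2 vehicle libraries stood far apart, and the call ended without vehicle A (0.67, edgeR adjusted p = 0.0844) or EMD37 B (1.11, 0.0839), while the log2 difference was 2.32 without vehicle B. IFI6, an inhibitor of cell death, had 13.8 and 14.1 CPM with EMD37 against 20.2 and 20.0 CPM in vehicle (-0.53, SE 0.14, edgeR adjusted p = 0.00657). Its call ended without EMD37 A (-0.49, edgeR adjusted p = 0.0546). TRIM21, a cytosolic antibody receptor and ubiquitin ligase, had 28.3 and 25.7 CPM with EMD37 against 38 and 38 CPM in vehicle (-0.50, SE 0.12, edgeR adjusted p = 0.00302). The EMD37 libraries lay below the vehicle libraries in IFI6 and TRIM21 and above them in ISG20.

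XAF1, an antagonist of the apoptosis inhibitor XIAP, had 5.17 and 4.83 CPM with EMD37 at 24 h against 8.70 and 5.92 CPM in vehicle, and was not called (-0.56, SE 0.24, edgeR adjusted p = 0.0692). At 12 h it had 9.12 and 10.5 CPM with EMD37 against 5.39 and 6.67 CPM in vehicle, with the highest log2 difference of the set at that time and no call (0.70, SE 0.22, edgeR adjusted p = 0.0593). The antisense gene PRAL covers 38.3% of its exon bases, and without strand their reads cannot be told apart. Also not called in either comparison were IFI27, IFI35, IFI44, IFI44L, EPSTI1, BST2 and RSAD2. At 24 h these ranged from -0.61 for EPSTI1 to 0.25 for IFI27, and at 12 h from -0.17 for BST2, the tetherin that holds virions on the cell, to 0.24 for IFI35. RSAD2, which encodes the antiviral enzyme viperin, had 0.845 and 0.772 CPM with EMD37 at 24 h against 1.11 and 0.969 CPM in vehicle, so a difference was not detectable at this depth.

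The effect of EMD37 differed between 24 h and 12 h in 13 members, by the test of the difference itself (the 24 h log2 difference minus the 12 h log2 difference). The difference was higher in 3 (8.82%), beside 7.96% of all tested genes, and lower in 10 (29.4%), beside 7.94% of all tested genes. Its median over the members was -0.34, beside -0.04 over all genes. It was lowest in OASL (-1.34, SE 0.25, edgeR adjusted p = 0.00159), which was at -1.35 at 24 h and -0.01 at 12 h. XAF1 followed at -1.26 (SE 0.32, edgeR adjusted p = 0.0136), with log2 differences of -0.56 at 24 h and 0.70 at 12 h that were not called on their own. IFIT5 was at 0.54 (SE 0.11, edgeR adjusted p = 0.00245), with a rise at 24 h and a fall at 12 h. Leaving out EMD37 B at 12 h brought the lower members to 6, and leaving out vehicle A at 24 h brought the higher members to 5.

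Within vehicle, some members differed between 24 h and 12 h. At 24 h against 12 h, 5 members were higher in vehicle (14.7%), beside 2.75% of all tested genes, and 1 was lower (2.94%), beside 3.25% of all tested genes. The vehicle libraries at 24 h also serve the comparison with EMD37 at 24 h, so these values are not independent of it. IFIT1 had 268 and 252 CPM in vehicle at 24 h against 182 and 164 CPM in vehicle at 12 h (log2 difference 0.58, SE 0.08, edgeR adjusted p = 0.00114). IFIT2 was at 0.65 (SE 0.09, edgeR adjusted p = 0.000881) and IFIT3 at 0.54 (SE 0.08, edgeR adjusted p = 0.00121). In EMD37, where the change over time was not tested, IFIT1 had 107 and 122 CPM at 24 h and 130 and 141 CPM at 12 h. IFIT3 had 212 and 217 CPM with EMD37 at 24 h and 224 and 245 CPM at 12 h. IFIT2 was higher at the later time, with 198 and 225 CPM with EMD37 at 24 h and 167 and 186 CPM at 12 h. The remaining calls were IRF1 at 0.52 (edgeR adjusted p = 0.0265), IFI44 at 0.43 (0.0439) and TRIM25 at -0.32 (0.0354). With EMD37, IRF1 had 33.1 and 33.7 CPM at 24 h and 34.6 and 30.5 CPM at 12 h. IFI44, a cytoplasmic protein of unclear function, had 51.7 and 57.4 CPM with EMD37 at 24 h and 36.1 and 37.6 CPM at 12 h. In vehicle, IRF1 had 32.7 and 39.3 CPM at 24 h against 24.7 and 25.5 CPM at 12 h. IFI44 had 61.0 and 47.5 CPM in vehicle at 24 h against 41.1 and 39.8 CPM at 12 h. None of these 3 calls held without vehicle A at 12 h (IRF1 0.19, IFI44 0.223, TRIM25 0.069 as edgeR adjusted p) or vehicle B at 12 h (0.105, 0.2 and 0.292 in that order). They also ended without further libraries, with IFI44 at 0.22 (edgeR adjusted p = 0.259) without vehicle A at 24 h. Counts of higher members were 3 without vehicle A, vehicle B or EMD37 A at 12 h, and no member was lower without EMD37 B at 24 h or without any 1 of the 12 h libraries.

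Genes above and beside the set gave context for these values. None of 10 interferon genes had enough reads to be tested, IFNB1 had 0 reads in all 8 libraries and IFNL1 had 2 in all. IFNK, named after its values were seen, had the most of the 10, with 32 reads in all. It had 3 and 2 reads with EMD37 at 24 h against 13 and 4 in vehicle at 24 h. At 12 h it had 0 and 1 with EMD37 against 2 and 7 in vehicle, and no difference was tested. Of 7 tested receptor and kinase genes, 2 were called higher (28.6%, beside 19.6% of all tested genes) and none lower at 24 h, and none was called at 12 h. IFNAR1 had 114 and 116 CPM with EMD37 at 24 h against 89.0 and 80.9 CPM in vehicle (log2 difference 0.43, SE 0.08, edgeR adjusted p = 0.000375). JAK1 had 9.40 and 7.05 CPM with EMD37 against 4.63 and 5.82 CPM in vehicle (0.66, SE 0.23, edgeR adjusted p = 0.0281), a call that ended without vehicle A (0.52, 0.109) or EMD37 A (0.46, 0.216), when only the groups compared were fitted (edgeR adjusted p = 0.0607) and with DESeq2 (DESeq2 adjusted p = 0.0791). IFNAR2 (-0.53, edgeR adjusted p = 0.281) and TYK2 (0.18, 0.69) were not called. Of the 4 tested STAT and IRF genes outside the set, 1 was called higher at 24 h (25%, beside 19.6% of all tested genes) and none lower. It was IRF5 (0.83, edgeR adjusted p = 0.0317), a gene named after its values were seen. That call ended without vehicle A (0.19), EMD37 A (0.119) or EMD37 B (0.075) at 24 h, and with DESeq2 (DESeq2 adjusted p = 0.13).

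Of 11 tested sensors and adaptors, 3 were higher (27.3%, beside 19.6% of all tested genes) and none lower at 24 h, and none was called at 12 h. IFI16, a nuclear DNA sensor, had 95.4 and 111 CPM with EMD37 at 24 h against 46.5 and 39.6 CPM in vehicle (log2 difference 1.26, SE 0.11, edgeR adjusted p = 2.58e-07). The DNA sensor CGAS (0.62, edgeR adjusted p = 2.3e-05) and the kinase TBK1 (0.61, 0.0154) were the others, named after their values were seen. The call of TBK1 ended without EMD37 B (0.53, edgeR adjusted p = 0.107) and with DESeq2 (DESeq2 adjusted p = 0.061). RIGI, the sensor RIG-I, had 121 and 136 CPM with EMD37 at 24 h against 155 and 135 CPM in vehicle and was not called (-0.18, edgeR adjusted p = 0.119). Of 7 tested negative regulators, 1 was called higher at 24 h (14.3%, beside 19.6% of all tested genes) and none lower. It was SOCS2 (0.65, edgeR adjusted p = 2.87e-05), named after its value was seen. SOCS3 had 0 reads and SOCS1 had 28 in all.

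Another 49 interferon-induced genes outside the set were listed, and 42 were tested. At 24 h 13 of them were lower (31.0%, beside 21.1% of all tested genes) and 5 higher (11.9%, beside 19.6%). Their median log2 difference was -0.28, beside -0.03 over all genes. At 12 h 5 were lower (11.9%, beside 3.43%) and 2 higher (4.76%, beside 5.27%), with a median of -0.09, beside -0.01 over all genes. GBP1, a guanylate-binding protein best known as a target of interferon gamma, had 15.9 and 16.2 CPM with EMD37 at 24 h against 52.8 and 48.8 CPM in vehicle (-1.66, SE 0.11, edgeR adjusted p = 5.93e-09). At 12 h GBP1 had 50.1 and 46.9 CPM with EMD37 against 70.1 and 69.9 CPM in vehicle (-0.53, SE 0.10, edgeR adjusted p = 0.00174), a call that ended without EMD37 B (0.0639). Its relatives GBP4 (-1.61, edgeR adjusted p = 0.000545) and GBP2 (-1.14, 0.0178) were also lower at 24 h, as was the immunoproteasome subunit PSMB9 (-1.02, 0.00825). GBP2 had 2.64 and 2.90 CPM with EMD37 at 24 h against 8.33 and 3.77 CPM in vehicle, and its log2 difference was -0.41 without vehicle A (edgeR adjusted p = 0.407). It was also not called without EMD37 A (0.0877) or EMD37 B (0.0766), nor was PSMB9 without vehicle A (0.1) or EMD37 A (0.0526) or with DESeq2 (DESeq2 adjusted p = 0.064). WARS1, the tryptophanyl-tRNA synthetase, which amino acid stress as well as interferon gamma can induce, had 232 and 237 CPM with EMD37 at 24 h against 107 and 103 CPM in vehicle (1.16, SE 0.08, edgeR adjusted p = 8.12e-09). It was also higher at 12 h (0.58, edgeR adjusted p = 8.78e-05). BATF2 was lower at 12 h (-1.48, edgeR adjusted p = 0.0391) on few reads, and its call was lost on leaving out any single 12 h library (0.125 to 0.211) and with DESeq2 (DESeq2 adjusted p = 0.162).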

How the data were processed

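Libraries (8) from MDA-MB-231 cells were prepared for RNA-seq with the TruSeq V2 kit, per the labels' protocols. FastQC, STAR, DESeq2 and build hg38 are named in the submitters' processing notes; for the read counter and the use of strand, these sources name nothing (not given in the sources used here). Whole-number read counts per gene were deposited by the authors, and these entered every test. The deposited normalized values (signal) equal those counts divided by 1 size factor per library, to a relative range of 9.7e-10, and hold 37 of the 38 members (ISG15 was read from the counts alone). They entered no test. The count table used here stops inside a line and holds 36715 genes. Genes were named with GENCODE 29.

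In edgeR 4.0.16 (R 4.3.3), filterByExpr with minimum count 10 kept 14850 genes; TMM factors were 0.948 to 1.03. The quasi-likelihood fit used 1 mean per group, 4 residual degrees of freedom and a biological coefficient of variation of 0.0733. The standard error (SE) was taken as the absolute log2 difference divided by the square root of the F statistic of the test. Comparisons were EMD37 against vehicle at 12 h and at 24 h, their difference, and vehicle at 24 h against 12 h, with Benjamini-Hochberg adjustment over all genes and calls at an adjusted p below 0.05. The fit was tested on simulated data. Alternatives were DESeq2 1.42.0, other size factors, no filter, only the groups compared, a replicate block and 1 library left out.

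The members and gene lists were chosen with earlier results of these data known. Every member called in any comparison is named with its values; listed genes are named if called at a log2 difference of at least 1 or if in a short set of pathway genes, 1 of which is not reported here. RefSeq promoter windows were searched as described with the sequences.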

Additional observations from a re-analysis of the deposited data

Results flagged for a closer look

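The log2 difference between EMD37 and vehicle was not the same at 24 h and 12 h in 13 members, by edgeR's test of the difference (24 h minus 12 h) with Benjamini-Hochberg adjustment. The difference was negative in OASL (-1.34), XAF1 (-1.26), OAS2 (-1.08), HERC6 (-0.93), SAMD9L (-0.90), PARP9 (-0.88), IFIT1 (-0.83), OAS3 (-0.74), IFIT3 (-0.67) and IFIT2 (-0.39). It was positive in MX1 (1.00), TRIM25 (0.60) and IFIT5 (0.54). Of these, IFIT1, IFIT3, IFIT5, OAS2, OASL, SAMD9L and TRIM25 were called under every alternative run. XAF1 ended without vehicle A at 12 h (edgeR adjusted p = 0.0615), EMD37 B at 12 h (0.0735) or EMD37 B at 24 h (0.0621). OAS3 ended without EMD37 B at 12 h (edgeR adjusted p = 0.0557). HERC6 ended without vehicle B at 12 h (edgeR adjusted p = 0.0681), EMD37 A at 12 h (0.0768) or EMD37 A at 24 h (0.0825). PARP9 ended without vehicle B at 12 h (edgeR adjusted p = 0.142), EMD37 B at 12 h (0.194) or EMD37 A at 24 h (0.171) and with DESeq2 (0.1). MX1 ended without 6 of the 8 libraries and with DESeq2 (0.0919). IFIT2 was called in 2 of 12 alternatives: it ended without 6 of the 8 libraries, with DESeq2 (0.114), with RLE size factors in edgeR (0.0804), with every gene that had a read (0.0566) and with the replicate block (0.0735).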

How the results depend on the processing

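None of the called members and named listed genes changed direction under an alternative; genes that were not called were not followed. Over all genes at 24 h, lower calls outnumbered higher ones (2916 higher, 3128 lower), but not with RLE size factors (3064 and 2963) or DESeq2 (2458 and 2314). At 24 h, 13 of the 20 called members were called under every alternative run (IFIT1, IFIT2, IFIT3, MX1, OAS2, OAS3, OASL, HERC6, PARP9, DTX3L, SAMD9L, TRIM21 and TRIM25), and 7 were lost under some; at 12 h 0 of 3 were. With 1 library left out, the members called at 24 h were 2 to 7 higher and 11 to 14 lower, and at 12 h 0 to 2 higher and 0 to 4 lower. For the difference they were 2 to 5 higher and 6 to 11 lower, and for vehicle over time 3 to 7 higher and 0 to 1 lower. Over all genes the same omissions gave 2195 to 3056 higher and 2113 to 2941 lower at 24 h, 387 to 1271 and 106 to 958 at 12 h, 677 to 1615 and 513 to 1621 for the difference, and 34 to 1564 and 55 to 929 for vehicle over time. Fitting only the groups compared gave 2 higher and 5 lower members at 12 h (1394 and 1109 of all genes) and 3 higher and 0 lower members for vehicle over time (42 and 83 of all genes). DESeq2 called 305 of all genes lower at 12 h, 725 lower for the difference and 239 higher for vehicle over time. Testing every gene with a read gave 1 higher member at 12 h and 623 of all genes higher for vehicle over time. The cause of these shifts was not tested. With 2 libraries a group, a member near the floor could change without being detected at this depth. A fit that adds genes with reads recovered from the normalized values was not run.

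The letters A and B were not found to pair the libraries, as the correlation of same-letter deviations from the group means was over 0.1 in 1 of the 6 pairs of groups. It was 0.16 between vehicle 24 h and vehicle 12 h, 0.01 between EMD37 24 h and EMD37 12 h, -0.16 between EMD37 24 h and vehicle 24 h, and -0.04 between EMD37 12 h and vehicle 12 h; the others were 0.03 and -0.08. The fit with a replicate block called 7 members higher and 13 lower at 24 h, and 0 higher and 2 lower at 12 h. It ended the calls of IFIT5 (adjusted p = 0.0521) and BATF2 (0.0531) at 12 h, of IFIT2 for the difference (0.0735) and of IFI44 for vehicle over time (0.0592). Crossing the letters of EMD37 at 24 h alone, an alternative added after seeing the data, called 7 members higher and 13 lower. Over all genes it called 3243 higher and 3463 lower, beside 2858 and 3037 with the replicate block as labelled.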
